A study of Mus musculus with 2207 samples.

Results

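Neurons of mouse cortex were compared between 1 WT pool and 1 pool labelled Ehmt1delta/+, called het-labelled here, both sequenced as single nuclei in 384-well plates by RamDA-seq, a full-length total RNA method. The comparison took every nucleus of these pools that the deposited labels call Neuron, which gave 285 WT and 306 het-labelled nuclei, 591 of the 2207 nuclei of the series. Each pool came from 3 male C57BL/6 mice of 14 weeks of age given 2 doses of tamoxifen (100 mg/kg) at 3 weeks of age per the labels. The study's methods give the substrain as C57BL6/J and set the doses 1 week apart. Both pools carried the *Ehmt1* iTg allele, a Cre-inducible FLAG-GLP transgene, and per their labels both lacked CamKII-CreER, so the WT pool was Ehmt1+/+; Ehmt1 iTg and the het-labelled pool was Ehmt1delta/+; Ehmt1 iTg. The other 384-well pools, iTg (Ehmt1+/+; Ehmt1 iTg; CamKII-CreER) and het; iTg (the same with Ehmt1delta/+), and the 96-well WT and Ehmt1delta/+ pools, which carry no iTg allele, had the same ages and treatment and are used only beside it. The study's legends describe its 384-well groups as carrying *CamKII-CreER*, which differs from the labels for the WT and het-labelled pools, and the labels were followed. No label says which mouse a nucleus came from. Each genotype is therefore 1 sample, no test was run, and every SD is the spread of nuclei in a pool.

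*Ehmt1* encodes GLP, a histone methyltransferase that works as a heteromer with its partner G9a, the product of *Ehmt2*, to place H3K9me2, a mark of repressed chromatin. Loss of 1 functional copy of *EHMT1* causes Kleefstra syndrome, a human disorder of intellectual disability with autistic features. Cortical neurons are either excitatory, releasing glutamate loaded into vesicles by the transporter VGLUT1 (*Slc17a7*), or inhibitory, releasing GABA made by glutamate decarboxylase (*Gad1*, *Gad2*). A mean over all neurons therefore moves with the mix of both classes as well as with the level inside a class, and the comparison was made in a way that separates them.

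*Ehmt1* RNA, on chromosome 2 of mm10 from 24789928 to 24919614, was higher in the nuclei labelled Ehmt1delta/+. In excitatory nuclei *Ehmt1* ran from 0 to 46.1 RPKM with a median of 18.2 in WT, and from 0.623 to 63.8 RPKM with a median of 29.6 in the het-labelled pool. The means were 18.7 ± 8.0 and 30.6 ± 10.8 RPKM (SD, n = 210 and 253 nuclei), a log2 ratio of 0.70, and the ranges overlapped. Inhibitory nuclei gave 21.9 ± 10.8 and 36.9 ± 15.6 RPKM (n = 73 and 52) for *Ehmt1*, a log2 ratio of 0.75. *Ehmt1* stood at 20.3 RPKM in excitatory nuclei of the iTg pool and 34.0 in the het; iTg pool, and at 17.8 and 30.5 RPKM in those of the 96-well WT and het-labelled pools, so the pools labelled Ehmt1delta/+ were the higher ones in each plate format. This value sums the reads of all exons, deleted or not, so it does not check the deletion, and every direction given here rests on the genotype labels. *Ehmt2* differed little, at 68.9 ± 23.4 and 66.3 ± 24.9 RPKM in excitatory nuclei. Of 353 measured genes within 10 Mb of *Ehmt1*, 1 was past 2-fold in excitatory nuclei, and their median log2 ratio was -0.03, as it was for all genes.

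The read totals recovered from the RPKM steps had medians of 392718 in WT and 356746 in het-labelled neurons, and ran from 69711 to 1332269 and from 50539 to 1292107. The neuron label fitted its markers: *Snap25*, a synaptic vesicle fusion protein, was above 0 in 284 of 285 WT nuclei, while *Ctss*, a microglial protease, was above 0 in 1 WT and 2 het-labelled nuclei. All WT nuclei in 384-well plates carry 1 plate code in their titles and the nuclei of the other 384-well pools carry another, so plate code and genotype cannot be told apart in this comparison.

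Each nucleus was put in the excitatory or inhibitory class by whether *Slc17a7* or *Gad1* had the larger value in it. In WT, 210 nuclei were excitatory and 73 inhibitory, an inhibitory share of 25.6% (exact 95% interval 20.7 to 31.1%). In the het-labelled pool, 253 were excitatory and 52 inhibitory, a share of 17.0% (12.96 to 21.7%). The het-labelled share was lower, and the intervals overlapped by a small margin. Both genes were above 0 in 27.0% of WT and 13.4% of het-labelled neurons, but the smaller was within 4-fold of the larger in only 4 and 0 of them, and no doublet caller was run on these singly sorted nuclei. Traces of *Gad1* stood above 0 in 19.5% (14.4 to 25.5%) of WT and 9.09% (5.85 to 13.3%) of het-labelled excitatory nuclei, at means of 0.518 and 0.335 RPKM, and their part in other ratios was not tested. Inhibitory nuclei made up 24.5% (19.3 to 30.3%) of WT and 16.2% (12 to 21.2%) of het-labelled neurons in the 96-well pools, which share no sample with the 384-well pools. They made up 19.3% (14.8 to 24.4%) in the iTg pool and 17.9% (13.6 to 22.9%) in the het; iTg pool. All of these intervals cover counting error only, and with 1 pool per genotype the spread between mice is not in them.

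**Figure D1:**
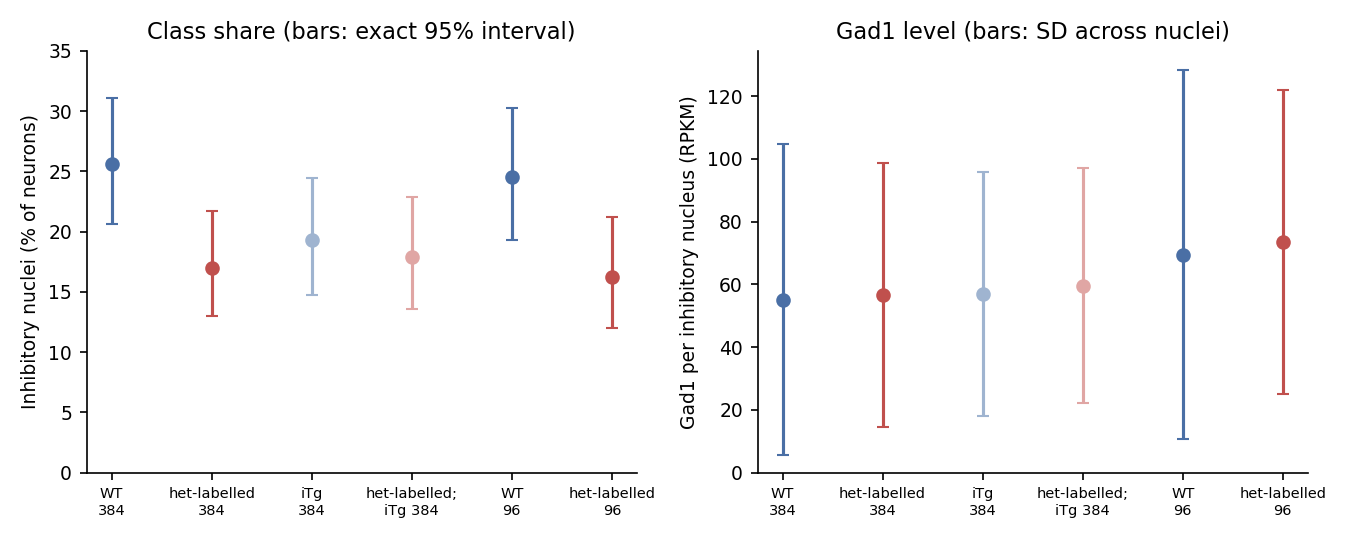
Left, inhibitory nuclei as a percent of neurons in the 6 pools, with exact 95% intervals that cover counting error only. Right, mean *Gad1* level in RPKM per inhibitory nucleus, with bars for the SD across nuclei. The share is 25.6% in WT and 17.0% in het-labelled neurons of the 384-well plates, while *Gad1* per inhibitory nucleus, a level that the class rule itself uses, is 55.2 and 56.5 RPKM.

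Genes of GABA synthesis and transport were lower over all het-labelled neurons and close to the WT level inside inhibitory nuclei. *Gad1* averaged 14.5 RPKM over WT neurons and 9.88 over het-labelled neurons. Inside inhibitory nuclei *Gad1* ran from 0.240 to 246 RPKM with a median of 42.1 in WT and from 8.66 to 199 with a median of 44.2 in the het-labelled pool. The ranges overlapped over almost their whole length, with means of 55.2 ± 49.6 and 56.5 ± 42.1 RPKM. The difference over all neurons was -4.63 RPKM, of which the difference in class shares carried 103%, slightly more than the whole, because the level part had the other sign. Since *Gad1* set the class, its level within the class is not independent of the split. The genes below did not set the class, but they were measured in nuclei chosen by *Gad1*, so their levels are not wholly independent either.

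*Gad2*, the other glutamate decarboxylase, averaged 38.8 ± 32.0 and 35.5 ± 28.1 RPKM in inhibitory nuclei, and the share carried 86.1% of its difference over all neurons. *Slc32a1*, the vesicular GABA transporter, averaged 35.7 ± 21.96 and 37.4 ± 25.1 RPKM there, with a share part of 111%. In inhibitory nuclei of the 96-well pools the medians were further apart, in opposite directions, at 46.1 and 55.3 RPKM for *Gad2* and 35.99 and 14.8 for *Slc32a1*. For *Lhx6*, a transcription factor of interneurons from the medial ganglionic eminence, the share part was 108%, and for the neuropeptide *Npy* 86.9%. Of the 14 pan-inhibitory genes listed, 14 had log2 ratios below 0 over all neurons, with a median of -0.63. Within inhibitory nuclei 9 were below 0 and 5 above, with a median of -0.11, and none was past 2-fold there. *Dlx2*, a homeobox factor of the interneuron lineage, was the lowest of them within the class, at 6.37 ± 13.6 and 3.21 ± 5.17 RPKM. The 15 measured genes of the medial ganglionic eminence list had medians of -0.49 over all neurons and -0.04 within inhibitory nuclei.

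**Figure D2:**
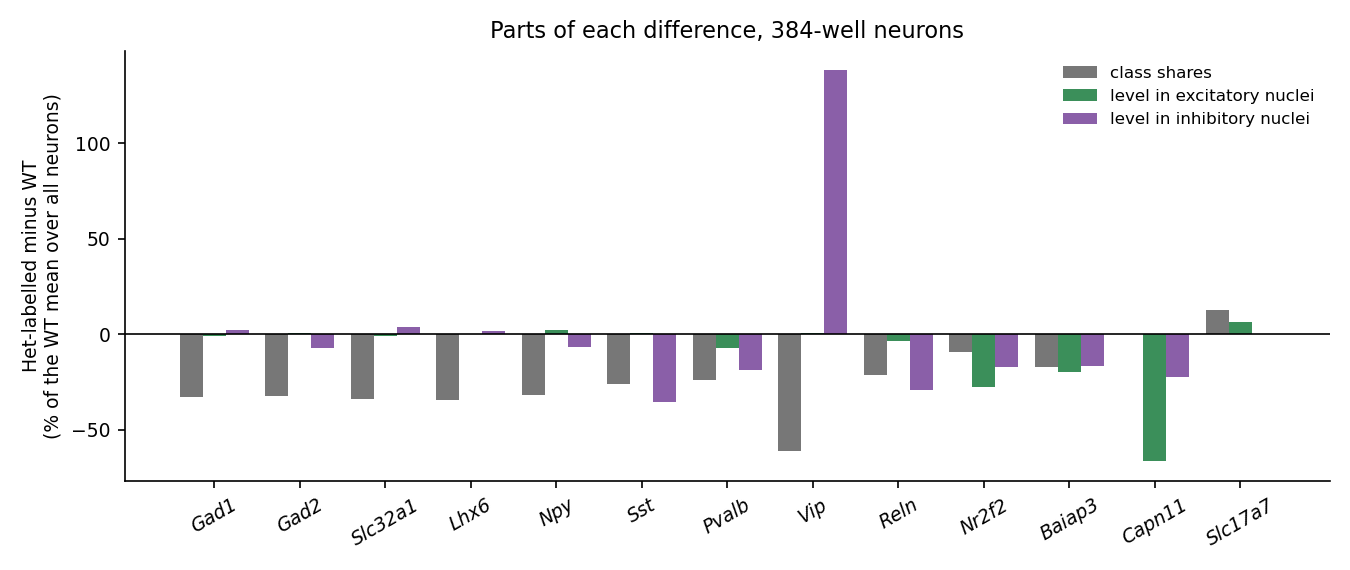
Het-labelled minus WT difference of mean RPKM over all neurons, as a percent of the WT mean, split into the part from class shares and the parts from levels within excitatory and inhibitory nuclei. *Gad1* is almost wholly a share difference, *Sst* holds a share part of -23.0 RPKM beside a level part of -31.6 RPKM, and *Capn11* is wholly a level difference.

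Somatostatin (*Sst*), the peptide of a large class of dendrite-targeting interneurons, differed in both parts. Its mean was 88.6 RPKM over WT and 34.4 over het-labelled neurons, a log2 ratio of -1.36. Nuclei in which *Sst* exceeded *Pvalb*, *Vip* and *Lamp5* numbered 20 among the 73 inhibitory WT nuclei (27.4%, 17.6 to 39.1%) and 18 among the 52 het-labelled ones (34.6%, 21.97 to 49.1%). The share of *Sst*-leading nuclei was thus not lower among inhibitory nuclei of the het-labelled pool. The level in these nuclei was, with *Sst* from 3.27 to 6760 RPKM and a median of 785 in WT against 7.36 to 1998 RPKM and a median of 486 in the het-labelled pool. The means in *Sst*-leading nuclei were 1245 ± 1634 and 559 ± 549 RPKM, so the gap was smaller than the SD of WT nuclei and the ranges overlapped. Share and inhibitory level carried -23.0 and -31.6 RPKM of the whole difference of -54.2. In the 96-well pools the mean in *Sst*-leading nuclei was 1189 ± 2373 and 287 ± 528 RPKM (n = 23 and 17), lower in the het-labelled pool as well. It was 1378 ± 1618 in iTg and 1072 ± 1283 in het; iTg nuclei (n = 20 and 11), but the medians of that pair ran the other way, at 660.5 and 963.8 RPKM. *Sst*-leading nuclei were 37.7% (24.8 to 52.1%) of iTg and 22% (11.5 to 36.0%) of het; iTg inhibitory nuclei, so the order of that share also differed from the WT and het-labelled pools.

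Other interneuron genes went both ways. Within inhibitory nuclei 7 of 15 measured genes of the medial and 3 of 8 of the caudal ganglionic eminence list had ratios above 0. Of all genes measured there 46.1% were above 0, so these counts are near the background. *Reln*, a secreted protein that guides neuronal layering, was 41.2 ± 82.2 and 19.4 ± 42.6 RPKM in inhibitory nuclei, and the share carried 30.3% of its difference over all neurons. *Kit*, a receptor tyrosine kinase, gave 14.4 ± 29.99 and 7.86 ± 22.1 RPKM there, with a share part of 31.5%. *Nr2f2* (COUP-TFII), a nuclear receptor of interneurons from the caudal ganglionic eminence, was lower in both classes, at 3.33 ± 6.32 and 1.62 ± 5.13 RPKM in inhibitory and 1.34 ± 5.62 and 0.602 ± 2.86 RPKM in excitatory nuclei. On the higher side, *Nos1*, the neuronal nitric oxide synthase, was 8.16 and 14.8 RPKM, and the neuropeptide *Cck* 6.06 and 9.03. The log2 ratio of *Cck* went from 0.57 to -0.56 without the 3 highest nuclei, and was -0.89 in inhibitory nuclei of the 96-well pools, so its direction rests on few nuclei. *Vip*, the peptide of disinhibitory interneurons, was too rarely above 0 to be measured, and its means of 23.8 ± 84.1 and 63.5 ± 207 RPKM rested on 7 WT and 6 het-labelled nuclei above 0. *Lamp5*-leading nuclei numbered 20 and 13, with *Lamp5* means of 65.9 and 21.2 RPKM in them, and *Pvalb*-leading nuclei numbered 16 and 8, with *Pvalb* means of 34.2 and 31.2 RPKM. The intervals of each subclass share overlapped between the pools.

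Among excitatory nuclei the layer makeup differed somewhat between the pools. The leading layer gene, each scaled by its own mean, was *Cux2* (layers II/III) in 33.8% of WT and 38.7% of het-labelled nuclei, *Rorb* (layer IV) in 25.2% and 19.0%, *Fezf2* (layer V) in 20% and 19.8%, and *Foxp2* (layer VI) in 12.4% and 17.4%. The exact intervals of each pair overlapped. The *Rorb* share of each pool still lay outside the interval of the other (19.5 to 31.7% in WT, 14.3 to 24.4% in the het-labelled pool). The WT *Foxp2* share lay below the het-labelled interval of 12.9 to 22.6%. *Rorb* itself was 6.49 ± 10.9 and 5.11 ± 10.5 RPKM, and *Slc17a7* was 130 ± 44.3 and 137 ± 47.7 RPKM.

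Few genes were past 2-fold, which here means a ratio of mean RPKM plus 0.1 of at least 2. Over all neurons 101 of 24348 genes were past 2-fold higher (0.415%) and 192 lower (0.789%) in the het-labelled pool. In excitatory nuclei 134 of 24388 were higher (0.549%) and 234 lower (0.959%). In inhibitory nuclei, with fewer nuclei behind each mean, 367 of 20041 were higher (1.83%) and 810 lower (4.04%). With both classes weighted by the same shares, 104 (0.428%) were higher and 154 (0.633%) lower, and 142 of the 192 genes lower over all neurons were still lower. These counts and their balance rest on low genes: with 1 RPKM added in place of 0.1 they were 26 higher and 26 lower over all neurons, 25 and 27 in excitatory nuclei, and 26 and 13 at equal shares. Excitatory and inhibitory nuclei shared 15 higher and 17 lower genes, which is 11.2% of the higher and 7.26% of the lower genes of excitatory nuclei. Genes past 2-fold were low genes: in excitatory nuclei their median was 1.32 RPKM in the higher pool against 3.61 for all genes. Predicted genes and small RNAs made up 61.9% of the higher and 73.1% of the lower genes there, against 44.5% of all.

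In excitatory nuclei, *Capn11*, a calpain protease known from testis, had the lowest ratio among genes with their own symbol and at least 1 RPKM. It is on chromosome 17 from 45630204 to 45659325. *Capn11* was above 0 in 57 of 210 WT nuclei (27.1%, 21.2 to 33.7%), reaching 60.01 RPKM, and in 26 of 253 het-labelled nuclei (10.3%, 6.82 to 14.7%), reaching 35.2 RPKM. The median nucleus was at 0 in both pools, and the means were 4.79 ± 11.8 and 0.615 ± 3.38 RPKM, a log2 ratio of -2.77. Inhibitory nuclei gave 5.38 ± 13.2 and 0.156 ± 0.518 RPKM, a ratio of -4.42, and the share part of the *Capn11* difference was -0.11%. *Capn11* was thus lower in both classes, and the detection intervals of excitatory nuclei did not overlap. With each nucleus thinned to 200000 reads, 25.0% of WT and 8.47% of het-labelled excitatory nuclei held a *Capn11* read. It was 7.64 RPKM in iTg and 0.282 in het; iTg excitatory nuclei, and 0.938 and 0.295 RPKM in the 96-well pools, again lower where the label was Ehmt1delta/+.

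**Figure D3:**
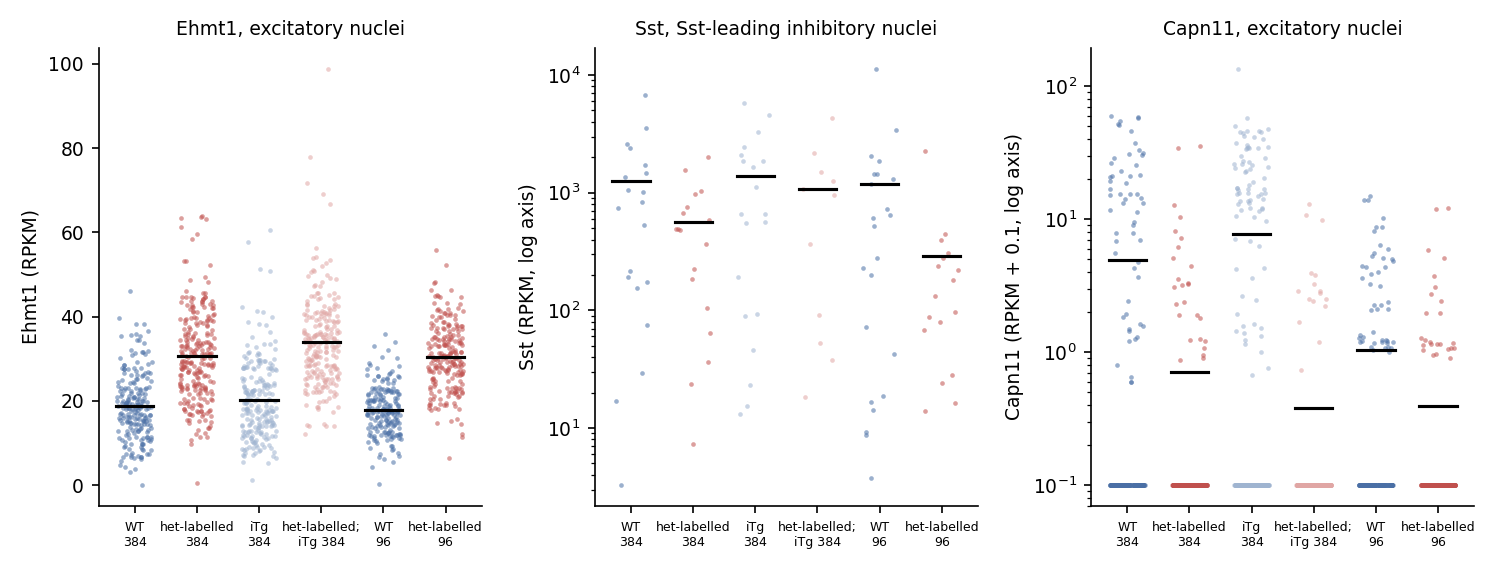
Each point is 1 nucleus, the pools of both plate formats stand side by side, and bars are means. *Ehmt1* in excitatory nuclei is on a linear RPKM axis, *Sst* in *Sst*-leading nuclei on a log axis, and *Capn11* in excitatory nuclei on a log axis of RPKM plus 0.1, where most nuclei sit at the floor. *Ehmt1* averages 18.7 and 30.6 RPKM and *Capn11* 4.79 and 0.615 RPKM.

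Other low-ranking genes of excitatory nuclei included a cAMP sensor and a checkpoint kinase. *Rapgef3*, the cAMP sensor EPAC1, averaged 7.29 ± 27.5 RPKM in WT and 1.41 ± 6.81 in het-labelled nuclei, and the transcripts *Rapgef3os1* and *Rapgef3os2* on the opposite strand were also past 2-fold lower. The study's methods report default counting parameters and name no strand setting. Reads of *Rapgef3* and its opposite strand transcripts therefore cannot be told apart here. *Bub1b*, a spindle checkpoint kinase, was above 0 in 35.7% (29.2 to 42.6%) of WT and 13.8% (9.83 to 18.7%) of het-labelled nuclei, at 3.44 ± 7.69 and 0.913 ± 3.00 RPKM. *Zfp541*, a zinc finger protein of germ cells, was above 0 in 23.8% and 11.1%, at 1.77 ± 4.07 and 0.666 ± 2.76 RPKM. For *Bub1b* and *Zfp541* the detection intervals of the pools did not overlap, and the thinned shares were 32.6% and 14.1% for *Bub1b* and 24.1% and 11.4% for *Zfp541*.

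Other lower genes differed less in detection, or had sums that few nuclei held. *Baiap3*, a relative of Munc13 in dense-core vesicle trafficking, was above 0 in 76.2% and 74.3% of nuclei, yet averaged 10.2 ± 57.6 and 3.88 ± 26.1 RPKM, with 62.1% of the WT sum in 3 nuclei. *Btg2*, an antiproliferative gene induced by activity, averaged 8.49 ± 25.2 and 3.63 ± 10.7 RPKM, above 0 in 48.1% (41.2 to 55.1%) and 38.7% (32.7 to 45.0%). The urokinase gene *Plau* averaged 2.59 ± 7.76 and 1.09 ± 4.84 RPKM, and the grainyhead transcription factor *Grhl3* 1.04 ± 3.96 and 0.380 ± 1.61. *Pcdhga1*, a clustered protocadherin of cell-cell recognition, averaged 2.21 ± 4.34 and 0.781 ± 2.07 RPKM. It shares exons with its cluster, and 96.7% and 97.2% of nuclei were above 0, partly by fractions of a read.

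Genes that ranked higher in het-labelled excitatory nuclei included enzymes, complement proteases and a lymphocyte receptor. *Alox12b*, a lipoxygenase of the skin barrier on chromosome 11 from 69156989 to 69169792, was above 0 in 36 of 210 WT nuclei (17.1%, 12.3 to 22.9%) and 95 of 253 het-labelled nuclei (37.5%, 31.6 to 43.8%). Its means were 2.04 ± 6.12 and 6.81 ± 13.7 RPKM, a log2 ratio of 1.69. *Cd6*, a receptor of T cells, was above 0 in 15.7% (11.1 to 21.4%) and 33.2% (27.4 to 39.4%) of nuclei, with means of 1.63 ± 6.72 and 4.21 ± 8.35 RPKM. The detection intervals of *Alox12b* and *Cd6* did not overlap between the pools. Thinned to 200000 reads, the shares were 16.5% and 35.7% for *Alox12b* and 14.1% and 32.0% for *Cd6*.

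The complement proteases C1s and C1r, which cleave the next components of the classical pathway, lie together on chromosome 6. *C1s1* (from 124530345 to 124542359) averaged 0.897 ± 3.54 and 2.90 ± 11.4 RPKM and was above 0 in 16.7% (11.9 to 22.4%) and 26.1% (20.8 to 32.0%) of excitatory nuclei. *C1ra* averaged 1.47 ± 4.07 and 2.85 ± 6.15 RPKM, and *C1rb* had a log2 ratio of 0.91, so *C1s1* alone was past 2-fold in excitatory nuclei among the 11 of 18 complement genes measured there. The median ratio of that list was 0.05. In inhibitory nuclei *C1s1*, *C1ra* and *C1rb* were too rarely above 0 to be measured. The microglial *C1qb* did not pass the filter, at 0.04 and 0.47 RPKM, and 1 het-labelled excitatory nucleus held a summed microglial list of 793 RPKM against medians of 10.99 in WT and 10.5 in the het-labelled pool, whose mean moves with this nucleus.

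Several other higher genes varied widely between nuclei. *Aspg*, an asparaginase, averaged 2.17 ± 18.2 and 5.76 ± 34.0 RPKM, with 78.6% and 58.7% of the sums in 3 nuclei. The collagen gene *Col23a1* averaged 2.56 ± 10.4 and 7.10 ± 25.0 RPKM and was above 0 in 19.5% and 23.3%. The Snail family factor *Snai3* gave 0.296 ± 1.10 and 1.04 ± 3.65 RPKM, the axonemal dynein *Dnah14* 0.440 ± 1.21 and 1.36 ± 3.11, and the cytokine *Clcf1* 0.634 ± 1.77 and 1.69 ± 4.91. In all of these the SD across nuclei was larger than the gap between the means, while the ratios stayed past 2-fold without the 3 highest nuclei, as the naming rule required.

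*Casp1*, the protease that activates interleukin-1beta in the inflammasome, was past 2-fold higher in excitatory nuclei. It lies on chromosome 9 from 5298517 to 5307265. *Casp1* was above 0 in 12 of 210 WT nuclei (5.71%, 2.99 to 9.77%), up to 7.97 RPKM, and in 31 of 253 het-labelled nuclei (12.3%, 8.48 to 16.9%), up to 20.02 RPKM. The intervals overlapped, and the means were 0.232 ± 1.03 and 0.857 ± 2.97 RPKM, a log2 ratio of 1.53. *Casp1* passed the detection minimum of 10% only through the het-labelled pool. With nuclei thinned to 200000 reads the shares were 4.96% and 9.12%. Nuclei with at least 2 *Casp1* reads were 3.81% (1.66 to 7.37%) of WT and 8.30% (5.21 to 12.4%) of het-labelled excitatory nuclei. In inhibitory nuclei *Casp1* was above 0 in 3 of 73 and 2 of 52 nuclei, and 1 WT nucleus at 39.8 RPKM set its mean, so the classes could not be compared. Excitatory means were 0.0504 RPKM in iTg and 0.236 in het; iTg nuclei, and 0.488 and 1.69 RPKM in the 96-well pools. Of the 8 measured inflammasome genes, *Casp1* alone was past 2-fold in excitatory nuclei, and their median ratio was 0.11. *Pycard*, the adaptor ASC, was 2.04 and 2.06 RPKM. *Il1b* was above 0 in 2 and 6 excitatory nuclei, and the sensor *Nlrp3* in 2 and 3.

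In inhibitory nuclei the ranked genes were low and rested on few nuclei. *Fcor*, a corepressor of Foxo1, was above 0 in 15 of 73 WT nuclei, with a mean of 2.59 ± 7.61 RPKM, and was listed at 0 in the 52 het-labelled nuclei, which at 3 counts allows a share of up to 5.77%. *Rest*, a repressor of neuronal genes, was above 0 in 34.2% (23.5 to 46.3%) and 9.62% (3.20 to 21.03%), at 1.21 ± 2.31 and 0.163 ± 0.643 RPKM. *Id2*, an inhibitor of helix-loop-helix factors, averaged 4.15 ± 11.8 and 0.797 ± 4.31 RPKM. *Lppos*, a transcript opposite *Lpp*, averaged 1.56 ± 4.46 and 0.0470 ± 0.173 RPKM, the apolipoprotein *Apom* 1.63 ± 3.46 and 0.261 ± 1.02, and the opsin *Opn3* 1.19 ± 3.31 and 0.177 ± 0.852. For *Rest* and *Lppos* the detection intervals did not overlap. *Fcor* and *Rest* passed the detection minimum for inhibitory nuclei only through the WT pool, so their direction was favoured by the filter.

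Higher in het-labelled inhibitory nuclei were *L3mbtl4*, a gene of the MBT chromatin-reader family, at 0.104 ± 0.654 and 2.00 ± 4.19 RPKM, and the collagen gene *Col6a4* at 0.349 ± 1.11 and 3.99 ± 14.9. *Tshb*, the thyrotropin beta subunit, gave 0.191 ± 0.597 and 1.30 ± 2.95 RPKM, the growth factor *Tgfa* 0.436 ± 2.30 and 2.29 ± 5.58, *Setmar*, a SET-domain methyltransferase, 0.3203 ± 1.11 and 1.85 ± 4.36, and the junction protein *Esam* 0.346 ± 1.10 and 1.78 ± 5.97. *Arc*, an activity-induced synaptic regulator, averaged 3.05 ± 6.81 and 13.9 ± 37.0 RPKM, with 58.0% of the het-labelled sum in 3 nuclei. Each of these genes was above 0 in less than 50% of the nuclei of either pool.

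Activity-induced genes had opposite medians in the classes. In excitatory nuclei 17 of 26 were below 0 and 9 above, while 44.2% of all genes were above 0. The median log2 ratio of the 26 was -0.24 against -0.03 for all genes, and *Btg2* alone was past 2-fold. Among those on the lower side were the early transcription factors *Fos* at 13.9 and 6.96 RPKM, *Junb* at 6.88 and 3.44 and *Egr1* at 34.8 and 18.4, with the phosphatase gene *Dusp1* at 15.7 and 8.84. *Homer1*, a postsynaptic scaffold, at 19.07 and 30.9 RPKM, and *Fosl2*, a Fos relative, at 3.48 and 5.97, were on the higher side. *Arc* was 160 ± 285 RPKM in WT and 134 ± 235 in het-labelled excitatory nuclei, a gap far inside its spread. Summed over the 26 genes, excitatory nuclei had means of 561 ± 765 and 518 ± 569 RPKM. The medians of that sum ran the other way, at 313 and 327 RPKM, so the summed level was not clearly lower. In inhibitory nuclei 13 of 18 measured genes were above 0, with a median of 0.41, and 4 were past 2-fold higher. Of all genes measured there 46.1% were above 0, with a median of -0.03, and 1.83% were past 2-fold higher. In the 96-well pools the sum of the 26 genes per inhibitory nucleus went the other way, at 141 ± 296 and 70.9 ± 47.6 RPKM, against 149 ± 181 and 202 ± 259 in the 384-well pools.

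The promoters of *Sst* and *Btg2*, picked after their values were seen, are shown because both genes rank among the lower ones above and because they hold the palindrome TGACGTCA, the cAMP response element bound by CREB. The 200 bases before the RefSeq start of each gene (GRCm38.p6, minus strand, chr16:23890845-23891044 for *Sst* and chr1:134079156-134079355 for *Btg2*) read as follows, with the element in capitals.
Sst: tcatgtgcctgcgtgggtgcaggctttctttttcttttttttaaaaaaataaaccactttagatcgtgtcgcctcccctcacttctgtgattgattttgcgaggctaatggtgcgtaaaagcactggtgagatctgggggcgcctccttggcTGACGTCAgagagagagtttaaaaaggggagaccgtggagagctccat
Btg2: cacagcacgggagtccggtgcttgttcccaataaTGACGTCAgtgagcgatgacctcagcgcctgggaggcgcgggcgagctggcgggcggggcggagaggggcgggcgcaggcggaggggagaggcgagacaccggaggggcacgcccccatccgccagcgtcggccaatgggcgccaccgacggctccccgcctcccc
The element lies 48 to 41 bases before the start of *Sst* and 166 to 159 bases before that of *Btg2*. The same 8 letters, which read alike on both strands, stand in 588 of 32851 promoter windows (1.79%) from 250 bases before to 50 after a start. Among genes past 2-fold in excitatory nuclei that have such a window, they stand in 1 of 46 lower and 0 of 30 higher genes. A match of letters is not evidence of binding.

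The RNAs encoded by the mitochondrial genome were higher in het-labelled nuclei of both classes. All 15 listed genes had ratios above 0 in excitatory nuclei, with a median of 1.02 and 8 past 2-fold, and in inhibitory nuclei, with a median of 1.69 and 14 past 2-fold. *mt-Rnr2*, the large ribosomal RNA, had medians of 113 and 252 RPKM and means of 171 ± 167 and 424 ± 665 in excitatory nuclei. *mt-Nd1*, *mt-Nd4* and *mt-Atp6*, of respiratory complexes I and V, had ratios of 1.29, 1.29 and 1.37. The summed level of the 15 genes per excitatory nucleus had a median of 390 RPKM in WT, with a range from 8.07 to 3535, and of 779 in the het-labelled pool, with a range from 0 to 22210. The 96-well pools went the other way, with medians of 908 and 202 RPKM, and *mt-Rnr2* was 635 RPKM in iTg and 349 in het; iTg excitatory nuclei. Mitochondrial RNAs lie outside the nucleus, and their part in the other ratios was not tested.

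Lists of neuronal function stayed close to the background. In excitatory nuclei the medians were 0.06 for 24 dendritic spine genes, -0.02 for 20 synaptic vesicle genes and -0.02 for 25 potassium channel genes, with none past 2-fold. The 28 genes that write, read or erase H3K9 methylation had a median of 0.02 and none past 2-fold. *Ehmt1* had the highest ratio of these in excitatory nuclei, and *Kdm4d*, a demethylase, the lowest, at 1.11 and 0.68 RPKM. Among 16 measured interferon genes 9 were above 0, with a median of 0.02, and none was past 2-fold. The MHC list had 1 gene past 2-fold each way, *H2-K1* at 1.31 and 0.57 RPKM and the class II chaperone *Cd74* at 0.22 and 0.62.

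Germline and X-linked Xlr genes were few and low. Of 11 measured germline-list genes in excitatory nuclei none was past 2-fold, and the median was -0.09. *Xlr3a*, one of several near-identical X-linked copies that can share reads, was 0.28 and 0.56 RPKM in excitatory and 0.28 and 1.22 in inhibitory nuclei. Its ratios were 0.80 and 1.80, and 2.35 in excitatory nuclei of the 96-well pools. Among markers of other cells, the sum of 12 oligodendrocyte genes had medians of 8.80 and 10.97 RPKM in excitatory nuclei, with the highest nuclei at 44.6 and 62.7. The sum of 11 astrocyte genes had medians of 32.0 and 33.6 RPKM there, and of 5.09 and 1.77 in inhibitory nuclei. *Sox9*, an astrocyte transcription factor, had a ratio of -1.39 in excitatory nuclei. Without the 3 highest nuclei the *Sox9* ratio was -0.46, so its size rests on few nuclei. The part of other cells' RNA in the ratios above was not tested.

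The 96-well pools were set beside the 384-well result gene by gene. Of the 134 genes past 2-fold higher in excitatory nuclei, 90 (67.2%) also had a ratio above 0 in the 96-well pools, against 46.2% of all genes, and 19 (14.2%) were past 2-fold there, against 0.439% of all. Of the 234 lower genes, 156 (66.7%) had the same sign, against 53.8% of all, and 40 (17.1%) were past 2-fold, against 1.66%. With 1 RPKM added, the share of the same sign was 44.0% of the 25 higher genes, no more than the background, and 74.1% of the 27 lower genes. The 8 mitochondrial genes were among the higher genes without the same sign, and without them 90 of 126 shared it. In inhibitory nuclei only 141 of 367 higher genes (38.4%, against 45.3% of all) and 442 of 810 lower genes (54.6%, against 54.7%) had the same sign, no more than the background.

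Genes with their own symbol that stood past 2-fold in both formats included *C1s1* (1.59 and 1.70 on the log2 scale), *Cd6* (1.32 and 1.79) and *Aspg* (1.37 and 2.76) on the higher side, and *Capn11* (-2.77 and -1.39), *Baiap3* (-1.37 and -1.84), *Btg2* (-1.20 and -1.08) and *Nr2f2* (-1.03 and -1.51) on the lower. In the 384-well pools *Aspg* was above 0 in 7.14% of WT and 12.25% of het-labelled excitatory nuclei. *Aspg* thus passed the detection minimum of 10% only through the het-labelled pool, so its direction in that pair was favoured by the filter. *Alox12b* (1.69 and 0.63), *Bub1b* (-1.80 and -0.61) and *Rapgef3* (-2.29 and -0.55) kept the sign at a smaller size. *Col23a1* (1.44 and -0.87), *Zfp541* (-1.29 and 0.29) and *Plau* (-1.17 and 0.57) did not.

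**Figure D4:**
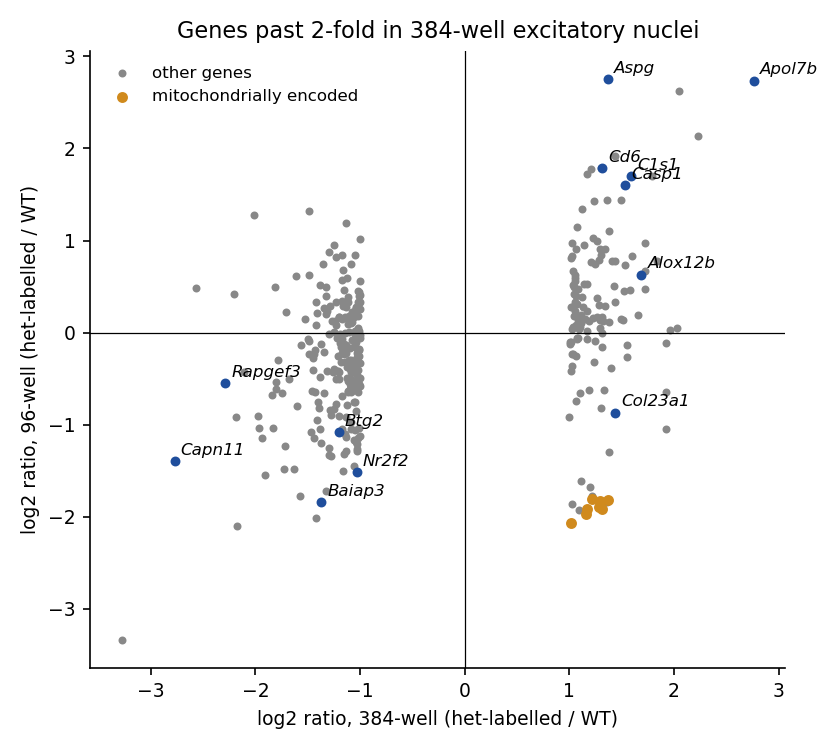
Log2 ratio of het-labelled to WT mean RPKM plus 0.1 in excitatory nuclei, for the 134 higher and 234 lower genes past 2-fold in 384-well plates (horizontal) against the same ratio in 96-well plates (vertical). The 8 mitochondrial genes, in orange, lie at 1.02 to 1.37 in the 384-well and at -2.06 to -1.80 in the 96-well pools, and the labelled blue genes include *C1s1*, *Cd6*, *Capn11* and *Baiap3*.

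The iTg and het; iTg pools gave a further pair of the same plate format. In that pair 66.5% of all genes had a ratio above 0 in excitatory nuclei, so its ratios are shifted. Of the 134 higher genes 62.7% had the same sign there, less than the 66.5% of all, and of the 234 lower genes 41.0%, against 33.5%. Of the 134 higher genes 21 were past 2-fold there too (15.7%, against 10.3% of all), and of the 234 lower genes 22 were (9.40%, against 0.824%). In all 3 pairs of pools, 8 genes were past 2-fold higher and 11 lower in excitatory nuclei. The share of all genes past 2-fold in both of the other pairs was not counted. The higher ones with their own symbol were *Casp1*, *Lsp1*, a leukocyte actin-binding protein, and the apolipoprotein L genes *Apol7b* and *Apol7e*. All 4 were above 0 in less than 10% of WT excitatory nuclei and passed the detection minimum only through the 384-well het-labelled pool, so their direction in that pair was favoured by the filter. *Apol7b* was 0.0201 and 0.714 RPKM in the 384-well WT and het-labelled pools, 0.0556 and 0.240 in iTg and het; iTg, and 0.0617 and 0.977 in the 96-well pools. The lower ones were led by *Capn11* and the predicted gene *Gm40466*, with *Tnxb*, a matrix glycoprotein, and *Zfp951*, a zinc finger gene. *Gm40466*, on chromosome 8 from 20001099 to 20008736, was 12.7 and 1.23 RPKM, 17.5 and 2.68, and 18.5 and 1.74 in the 3 pairs.

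Other named genes were closer together or in another order in the iTg pair. *Cd6* was 1.85 and 2.49 RPKM in iTg and het; iTg excitatory nuclei and *Baiap3* 4.77 and 4.73, the same order as in the other pairs at a smaller gap. *C1s1* was 0.814 and 0.631 and *Btg2* 2.91 and 3.36, the opposite order. For *Btg2* and *Baiap3* the iTg pool, which also carries Ehmt1+/+, lay nearer to the het-labelled than to the WT pool.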

How the data were processed

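Single nuclei of mouse cortex were sorted into 96-well or 384-well plates and sequenced by RamDA-seq. Per the study's methods and the submitters' processing notes, the authors trimmed adapters, mapped reads to mm10 with HISAT2 2.0.4, removed poor nuclei and counted reads per gene with featureCounts (Subread 1.5.0). The authors deposited RPKM values of 52636 genes with 1 column per nucleus, and these were the starting point here. Condition and cell type came from the labels, and each column matched 1 sample by its title.

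The read total of a nucleus was recovered from the spacing of its RPKM values. The spacing corresponds to hundredths of a read, so reads had been divided between matches, and near-identical or overlapping genes can share them. Mean RPKM was taken per pool and class, and log2 ratios were taken after adding 0.1 RPKM, which understates the ratio of low genes. A gene entered when 10% of the nuclei of either pool (20% for inhibitory nuclei) had a value above 0, and "past 2-fold" is a log2 ratio of at least 1 either way. A difference over all neurons was split into class share times mean level and level times mean share. Shares have exact Clopper-Pearson intervals at 95%. With 1 pool per genotype no test was possible, and the edgeR test on single nuclei in the study's methods was not used, since nuclei of a pool are not replicates.

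Named genes are those the paper names for these nuclei, the 12 highest and 12 lowest ratios in excitatory nuclei, the 8 highest and 8 lowest in inhibitory nuclei and over all neurons, and list members past 2-fold or with the highest means. Ranked genes needed 1 RPKM in the higher pool, a symbol of their own, and a ratio past 2-fold without their 3 highest nuclei. Genes named beyond this rule were chosen after their values were seen. The pools, the 28 gene lists and the rule were chosen with earlier results of these data known. Coordinates are from GENCODE M21 for 49121 genes with the same versioned identifier, and otherwise from RefSeq GRCm38.p6. On simulated data for excitatory nuclei (23710 genes, 200 changed 3-fold), 197 were recovered and 33 others passed. The changed genes were picked from the better detected ones with at least 1 RPKM in WT. The simulated spread between nuclei was preset and not fitted to these data. This recovery therefore does not apply to the low or unevenly spread genes among those past 2-fold here. The steps ran in Python 3.11.15 with scipy 1.17.1, numpy 2.4.6, pandas 2.3.3 and, for plots, matplotlib 3.10.9.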

Additional observations from a re-analysis of the deposited data

Results flagged for a closer look

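Results were picked out where the ratio of het-labelled to WT was past 2-fold one way in the 384-well pools and past 2-fold the other way in the 96-well pools. The differences between the formats were not tested, since each ratio compares 1 pool with 1 pool. In excitatory nuclei the log2 ratio was 1.37 in 384-well and -1.82 in 96-well plates for *mt-Atp6*, 1.29 and -1.89 for *mt-Nd1*, 1.29 and -1.82 for *mt-Nd4*, and 1.31 and -1.92 for *mt-Rnr2*, all of them encoded by the mitochondrial genome. *mt-Nd6* gave 2.04 and -1.63 in inhibitory nuclei. *Arc*, the activity-induced gene, gave 2.16 and -2.95 in inhibitory nuclei, where 3 nuclei held 58.0% of its sum in the 384-well het-labelled pool. The collagen gene *Col6a4* gave 3.19 and -1.21, and the methyltransferase gene *Setmar* 2.21 and -1.28, in inhibitory nuclei. Their means there rested on 52 het-labelled and 73 WT nuclei.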

How the results depend on the processing

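Of the values that answer a comparison, 330 stayed within their counting interval, spread or 1.5 times their count, while 44 did not. Among single named genes 394 values stayed and 22 moved. Without the 3 highest nuclei, *Sox8* in inhibitory nuclei of the 96-well pools went from a log2 ratio of 1.79 to -0.50. The counts of genes past 2-fold (higher and lower) depended on the treatment of low genes. With 1 RPKM added in place of 0.1 they were 26 and 26 over all neurons, 25 and 27 in excitatory nuclei, 120 and 206 in inhibitory nuclei, and 26 and 13 at equal class shares. With 0.01 RPKM added they were 159 and 325, 225 and 402, and, at equal shares, 162 and 281. Without the detection minimum they were 1016 and 1186, 1189 and 1322, 2736 and 4099, and 1047 and 1120. Leaving out the 3 highest nuclei of each gene gave 296 lower genes over all neurons, 1985 in inhibitory nuclei and 343 at equal shares. Nuclei with 200000 to 600000 reads gave 594 higher genes in inhibitory nuclei. With 1 RPKM added, higher genes were 50% of those past 2-fold over all neurons in place of 34.5%, 48.1% in place of 36.4% in excitatory nuclei and 66.7% in place of 40.3% at equal shares. The causes of these shifts were not tested, except that a larger addend draws the ratios of low genes towards 0.

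With layer markers unscaled, the WT and het-labelled shares were 50% and 49.8% for *Cux2*, 6.67% and 6.32% for *Rorb*, 30.9% and 34.0% for *Fezf2*, and 3.81% and 4.74% for *Foxp2*, so those shares depend on the scaling. Nuclei with at least 2 *Casp1* reads were 3.81% of WT and 8.30% of het-labelled excitatory nuclei, whose intervals overlap, and 2.74% and 0% of inhibitory nuclei. The astrocyte list in inhibitory nuclei had a median of -0.68 without the 3 highest nuclei. Genes of the same sign in the 96-well pools were, with 1 RPKM added, 34.6% of higher genes over all neurons, 44.0% and 74.1% of higher and lower genes in excitatory nuclei, and 31.7% and 50% in inhibitory nuclei. They were 28.5% and 65.5% in inhibitory nuclei without the 3 highest nuclei. No paired analysis was possible because each genotype is 1 pool and the nuclei carry no shared replicate numbers. Depth limits the inhibitory class most, with a median of 298843 reads in 52 het-labelled nuclei.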

Other observations

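In inhibitory nuclei 7 of the 367 higher genes and 10 of the 810 lower genes were past 2-fold the same way in all 3 pairs of pools, the 384-well WT and het-labelled, the 384-well iTg and het; iTg, and the 96-well pools. How many of all genes were so was not counted. In the iTg pair 62.7% of the higher genes had the same sign, against 64.0% of all, and 32.4% of the lower, against 36.0%, no more than the background. Past 2-fold there were 21.5% of the higher genes, against 12.8% of all, and 4.8% of the lower, against 2.2%. *Rasgef1c*, a Ras exchange factor gene, was 3.52 and 8.30 RPKM, 2.25 and 5.004, and 1.48 and 4.41 in the 3 pairs. *Clic6*, of the intracellular chloride channel family, was 1.03 and 2.72 RPKM, 0.0279 and 3.26, and 0.784 and 2.41. On the lower side, *Ppp1r15a* (GADD34), a phosphatase subunit of the stress response, was 1.41 and 0.510 RPKM, 2.48 and 1.02, and 1.99 and 0.689, and the hormone gene *Fgf23* was 0.903 and 0.286, 0.942 and 0.304, and 0.915 and 0.239. These genes were chosen after their values were seen, and the ratios rest on 43 to 73 inhibitory nuclei in a pool. In the 384-well pools *Fgf23* was above 0 in 21.9% of WT and 5.77% of het-labelled inhibitory nuclei. *Fgf23* thus passed the detection minimum for inhibitory nuclei only through the WT pool, so its direction in that pair was favoured by the filter.

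Several lower genes of excitatory nuclei, also chosen after their values were seen, were neighbours. On chromosome 13 the predicted genes and pseudogenes *Gm40653*, *Gm9616*, *Gm48530*, *Gm8616* and *Gm16505* lie together from 3273235 to 3363862, with log2 ratios from -2.11 to -1.44 in the 384-well and from -1.48 to -0.42 in the 96-well pools. *Gm48530* overlaps *Gm8616*, so these are not separate measurements throughout. *Gm40466* and *Gm20778*, both on chromosome 8, had ratios of -3.28 and -1.33 in 384-well excitatory nuclei and -3.34 and -1.72 in those of the 96-well pools.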
